A study of Mus musculus with 14 samples.

Results

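Sin3A binding was compared between C2C12 myoblasts and myotubes, over 1316 genomic regions made by merging the Sin3A peaks of both stages wherever they overlapped by at least 1 bp. The peak lists of the series hold 7606 peaks in all, of which 691 belong to Sin3A in myoblasts and 759 to Sin3A in myotubes. Of the regions, 561 (42.6%) carried a peak in myoblasts only, 127 (9.65%) at both stages and 628 (47.7%) in myotubes only. C2C12 is an established mouse muscle line, of C3H background per the labels. Myoblasts were growing cells in medium with 10% fetal bovine serum. Myotubes came from confluent cultures moved to 2% horse serum and were freed of undifferentiated cells with dilute trypsin. Each Sin3A group has 2 samples, and the 2 files of a group were identical, so every group is represented by 1 list and no spread between cultures could be measured. The myoblast samples used 2 lots of the Sin3A antibody and the myotube samples used 1 of those lots. The labels give the same catalogue number for the Sin3A and the Sin3B antibody, which bears on every value that sets Sin3A beside Sin3B.

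Sin3A is a scaffold protein that carries histone deacetylases HDAC1 and HDAC2 and is brought to chromatin by sequence-specific factors, among them Mad and REST. It is best known as a corepressor, and it is also found at the promoters of active genes. Sin3B is its paralog and shares the same fold of paired helices that binds these factors. Myoblasts that differentiate leave the cell cycle for good and switch on the genes of the contractile apparatus.

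The files name no genome build. In most of the genome their positions did not meet the gene starts of the RefSeq tables, which are of the GRCm38.p6 assembly, and no position was converted. In 8 stretches, 142 Mb in all, they came close to them, and genes were assigned there only. The stretches were chosen as runs of Sin3B regions within 1 kb of a gene start, so the share of Sin3B there (231 of 248) was set by that choice. Sin3A was not used to choose them. Its regions met a gene start within 1 kb in 48 of 56 cases inside the stretches (85.7%, 73.8 to 93.6%) and in 89 of 1260 elsewhere (7.06%, 5.71 to 8.62%). Many of them overlap a Sin3B peak, and of those that do not, 12 of 18 inside (66.7%, 41.0 to 86.7%) and 31 of 447 elsewhere (6.94%, 4.76 to 9.70%) met one. Intervals here and below are 95% exact binomial (Clopper-Pearson) intervals, which cover counting error only. The offset between files and tables was estimated from Sin3B region centres, as the mean of the median offsets at genes of either strand. It was -34 bp on chromosome 5, -97 bp on chromosome 8, 11 bp on chromosome 19 and 100 bp on chromosome 16, where it reached 333 bp past 90 Mb. In the stretch of chromosome 13 it was -538 bp, from 7 regions. Positions were left as they are, so a distance to a gene start given below is uncertain by an offset of this size. The stretches hold 56 of the 1316 Sin3A regions (4.26%): 31 on chromosome 16, 16 on chromosome 19, 6 on chromosome 8, 2 on chromosome 13 and 1 on chromosome 5. By class, 17 of them were myoblast only, 6 at both stages and 33 myotube only. A gene start means a start in the RefSeq promoter table, or either end of the gene where a coding or long noncoding gene has no entry there, since the gene table gives no strand. The ends of genes without an entry were added after a first pass with promoter-table starts alone had been seen, and counts under both definitions are given below.

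Promoters of 9 genes are shown because Sin3A regions of the 3 classes lay within 1 kb of their starts. They are the first 3 of each class by peak width that the promoter table holds. All are from RefSeq, build GRCm38.p6, and run 5′ to 3′ along the gene from 250 bases before to 50 bases after its start. Capitals mark matches, on either strand, to short motif letters: the GC box GGGCGG, the CCAAT box, the ETS letters CCGGAAG, the E2F letters TTCCCGC or TTTCGCG, the CRE letters TGACGTCA, the NRF1 letters GCGCATG, the YY1 letters AAGATGGC and the AP-1 letters TGANTCA. The myoblast-only set is Kmt5b (chr19:3767639-3767938 on the plus strand), Adamts1 (chr16:85803064-85803363 on the minus strand) and Pcx (chr19:4510222-4510521 on the plus strand). The set with Sin3A at both stages is Fam162a (chr16:36071512-36071811 on the minus strand), Cdca5 (chr19:6084847-6085146 on the plus strand) and Synj1 (chr16:91011259-91011558 on the minus strand). The myotube-only set is Naa50 (chr16:44139559-44139858 on the plus strand), 1810013L24Rik (chr16:8829850-8830149 on the plus strand) and Cmss1 (chr16:57606818-57607117 on the minus strand).
Kmt5b: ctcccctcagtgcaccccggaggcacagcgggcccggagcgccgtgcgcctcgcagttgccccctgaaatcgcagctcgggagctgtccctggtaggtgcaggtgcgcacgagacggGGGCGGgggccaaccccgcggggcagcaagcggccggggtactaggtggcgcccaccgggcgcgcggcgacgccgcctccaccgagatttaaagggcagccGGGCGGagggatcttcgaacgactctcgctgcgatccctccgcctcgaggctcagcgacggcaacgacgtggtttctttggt
Adamts1: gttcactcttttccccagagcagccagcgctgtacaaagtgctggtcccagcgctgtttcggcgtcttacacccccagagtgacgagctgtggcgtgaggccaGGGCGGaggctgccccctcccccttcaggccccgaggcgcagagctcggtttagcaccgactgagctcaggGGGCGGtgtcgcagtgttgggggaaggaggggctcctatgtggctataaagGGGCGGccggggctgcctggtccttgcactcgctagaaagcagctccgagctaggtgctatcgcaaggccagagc
Pcx: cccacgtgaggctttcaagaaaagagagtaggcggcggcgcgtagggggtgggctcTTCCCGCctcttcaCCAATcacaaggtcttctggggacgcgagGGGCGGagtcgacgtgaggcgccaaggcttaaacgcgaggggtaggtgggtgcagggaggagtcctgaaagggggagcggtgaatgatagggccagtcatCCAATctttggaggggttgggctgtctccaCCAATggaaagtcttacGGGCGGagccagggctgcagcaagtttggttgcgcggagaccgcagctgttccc
Fam162a: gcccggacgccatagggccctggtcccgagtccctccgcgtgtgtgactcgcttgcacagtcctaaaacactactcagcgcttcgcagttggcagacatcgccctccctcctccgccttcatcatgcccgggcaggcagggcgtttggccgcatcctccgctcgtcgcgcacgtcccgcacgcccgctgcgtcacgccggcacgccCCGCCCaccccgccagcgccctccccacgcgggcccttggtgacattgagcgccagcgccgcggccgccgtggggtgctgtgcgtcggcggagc
Cdca5: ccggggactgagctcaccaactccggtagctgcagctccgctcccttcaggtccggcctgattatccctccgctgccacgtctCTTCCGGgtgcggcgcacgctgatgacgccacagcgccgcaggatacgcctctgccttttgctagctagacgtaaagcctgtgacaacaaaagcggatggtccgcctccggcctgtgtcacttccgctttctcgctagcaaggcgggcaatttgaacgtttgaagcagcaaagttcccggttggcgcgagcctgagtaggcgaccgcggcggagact
Synj1: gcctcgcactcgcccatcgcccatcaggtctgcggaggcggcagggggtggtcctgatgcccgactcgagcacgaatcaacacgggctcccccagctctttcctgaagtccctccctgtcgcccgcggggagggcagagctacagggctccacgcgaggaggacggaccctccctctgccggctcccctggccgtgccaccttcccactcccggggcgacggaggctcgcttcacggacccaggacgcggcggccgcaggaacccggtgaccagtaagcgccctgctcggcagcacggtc
Naa50: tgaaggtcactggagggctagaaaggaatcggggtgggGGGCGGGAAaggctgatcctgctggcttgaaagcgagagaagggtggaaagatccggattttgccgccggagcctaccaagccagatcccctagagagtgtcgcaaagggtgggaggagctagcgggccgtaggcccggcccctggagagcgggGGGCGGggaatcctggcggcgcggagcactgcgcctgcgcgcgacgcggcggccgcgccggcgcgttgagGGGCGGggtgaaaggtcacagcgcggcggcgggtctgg
1810013L24Rik: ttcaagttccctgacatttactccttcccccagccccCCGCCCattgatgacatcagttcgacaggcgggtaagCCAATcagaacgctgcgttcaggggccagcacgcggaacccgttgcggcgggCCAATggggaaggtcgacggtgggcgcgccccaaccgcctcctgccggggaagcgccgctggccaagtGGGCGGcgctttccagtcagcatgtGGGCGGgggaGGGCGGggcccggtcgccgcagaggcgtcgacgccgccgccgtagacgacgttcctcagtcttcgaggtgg
Cmss1: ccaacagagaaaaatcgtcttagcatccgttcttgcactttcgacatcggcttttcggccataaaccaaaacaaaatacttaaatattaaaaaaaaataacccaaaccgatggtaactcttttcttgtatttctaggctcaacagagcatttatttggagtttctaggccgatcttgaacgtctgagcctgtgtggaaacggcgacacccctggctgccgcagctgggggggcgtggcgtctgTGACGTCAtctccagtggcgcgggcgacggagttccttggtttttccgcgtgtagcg

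The Pcx promoter holds 3 CCAAT boxes, 2 GC boxes and 1 match to TTCCCGC. Kmt5b has 2 GC boxes and Adamts1 has 3. Of the promoters with Sin3A at both stages, Fam162a holds 1 GC box, Cdca5 holds 1 ETS match and Synj1 holds none of these letters. Naa50 has 3 GC boxes and 1 TTCCCGC match, which overlaps the first GC box, and 1810013L24Rik has 4 GC boxes and 2 CCAAT boxes. Cmss1 has no GC box and 1 CRE match. A match is a description of the letters and not a bound site.

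The question put to these regions was whether sites held at 1 stage lie at the same kind of place as sites held at the other. Inside the stretches, myotube-only regions lay almost entirely at gene starts, and myoblast-only regions less often. Within 1 kb of a gene start lay 32 of 33 myotube-only regions (97%, 84.2 to 99.9%) and 10 of 17 myoblast-only regions (58.8%, 32.9 to 81.6%). The difference was 38.1 percentage points (Fisher's exact test over regions, two-sided, p = 0.00124, adjusted p = 0.00993 over 8 tests). All 6 regions with Sin3A at both stages lay at a gene start (54.1 to 100%), against 42 of 50 single-stage regions (84%, 70.9 to 92.8%), which was no detectable difference at these numbers (Fisher's exact test, adjusted p = 0.925). Since each stage has 1 list, these tests compare lists and not cultures. The stretches were chosen where Sin3B lay at gene starts, and Sin3B met 27 of 33 myotube-only and 5 of 17 myoblast-only regions. The shares at gene starts, and the p-value, are thus not independent of that choice. Of the Sin3A regions that overlap Sin3B, 36 of 38 inside the stretches met a gene start, and 58 of 813 elsewhere. The p-value therefore cannot tell a difference between the classes from the choice of stretches. With starts of the promoter table only, the definition used first, the counts were 31 of 33 (93.9%) and 5 of 17 (29.4%), so adding gene ends narrowed the difference. With the longer runs of Sin3B only (net score of at least 10), which leaves out the Sin3A regions of chromosomes 5 and 13, the counts were 30 of 31 and 9 of 16 (Fisher's exact test, adjusted p = 0.00935). These runs were chosen by Sin3B in the same way, so this count is no check of that choice. The call of the 38.1-point difference was lost with a window of 5 kb (97% against 82.4%, Fisher's exact test, adjusted p = 0.862). It was also lost with peaks at or above the median width of their list (18 of 19 against 8 of 10, Fisher's exact test, adjusted p = 0.982).

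**Figure D1:**
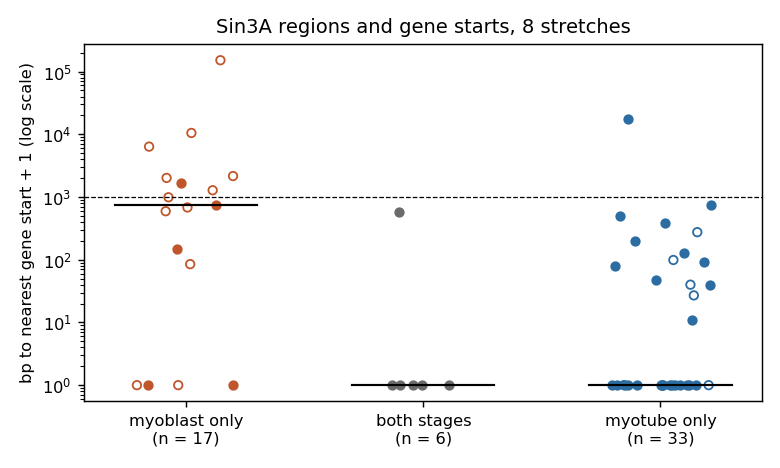
Distance in bp (plus 1, log scale) from each of the 56 Sin3A regions in the 8 stretches to the nearest gene start, by class. Filled points are regions that overlap a Sin3B peak at either stage, open points those that do not, black bars are medians and the dashed line is 1 kb. A region that holds a start is drawn at 1, and distances are uncertain by the offset between files and tables. Most myotube-only points lie below the line, and 7 of 17 myoblast-only points lie above it.

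The distances show the same order. The median distance to a gene start was 0 bp for the myotube-only class, the value given where a region holds the table's start, with an upper quartile of 90 bp. For regions at both stages the median and upper quartile were 0 bp and the largest distance was 573 bp. For the myoblast-only class the median was 734 bp, the upper quartile 2012 bp and the largest 151509 bp. The offsets above bear on all of these distances.

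Away from gene starts, 5 of 17 myoblast-only regions (29.4%, 10.3 to 56.0%) lay inside a gene, 1 within 10 kb of a gene and 1 farther off. In the myotube-only class 1 of 33 (3.03%, 0.0767 to 15.8%) lay inside a gene and none outside (0 of 33, upper bound 10.6%). The difference in regions inside genes was -26.4 points and missed the threshold (Fisher's exact test, p = 0.0136, adjusted p = 0.0545), as did that in regions outside genes (-11.8 points, adjusted p = 0.296). Exons and introns were not told apart, because the tables hold gene spans without exons.

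The stretches were chosen where Sin3B lay at gene starts, and Sin3B peaks were more frequent at myotube-only regions (27 of 33, 81.8%) than at myoblast-only regions (5 of 17, 29.4%). The location was therefore also counted over regions without any Sin3B peak. Of these, 6 of 6 myotube-only regions (54.1 to 100%) and 6 of 12 myoblast-only regions (50%, 21.1 to 78.9%) lay at a gene start. This difference was not tested, and the intervals overlap. Over the whole of chromosome 16, which adds 7 regions to the 31 of its stretch, the counts were 21 of 24 (87.5%) and 4 of 11 (36.4%). Of the 7 added regions only 1 met a gene start (14.3%, 0.361 to 57.9%), against 26 of 31 in the stretch. The whole-chromosome count therefore rests mainly on the chosen stretch and is no independent check of that choice.

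Counted by gene inside the stretches, Sin3A was found at more starts in myotubes. The stretches were chosen by Sin3B, which met 82.3% of all myotube-only and 38.5% of all myoblast-only regions. The gene counts are thus not independent of that choice, and the full lists are closer in size (759 and 691 peaks). Of 1670 genes with a start in the stretches, 62 (3.71%) had a Sin3A region of any class within 1 kb. A peak of the list itself lay there at 53 genes (3.17%) in myotubes and 19 (1.14%) in myoblasts. By class, 43 genes (2.57%) had a myotube-only region, 8 (0.479%) a region with Sin3A at both stages and 11 (0.659%) a myoblast-only region. With starts of the promoter table only, these were 41, 7 and 5 genes. The myoblast-only count was 7 within 500 bp of a start and 18 within 5 kb. The 8 shared genes were 42.1% (20.3 to 66.5%) of the myoblast genes and 15.1% of the myotube genes. No gene had regions of more than 1 class within 1 kb of its starts. Within 10 kb, regions of different classes lay near 5 of 103 genes, namely Ehbp1l1, Fam89b, Znrd2, Pcx and Synj1.

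Myoblast-only Sin3A lay between Mcm4, a subunit of the replicative helicase, and Prkdc, the catalytic subunit of the DNA-dependent protein kinase. This region, on chromosome 16 at 15637037 to 15637766, was the widest of its class at a gene start, at 730 bp, and held Sin3B at both stages. The next widest lay at Kmt5b, a histone H4 lysine methyltransferase (chromosome 19, 3767588 to 3768200, 613 bp). Those that followed lay at Adamts1, a secreted metalloprotease of the extracellular matrix (chromosome 16, 85802628 to 85803164, 537 bp), and at Pcx, pyruvate carboxylase (chromosome 19, 4509865 to 4510388, 524 bp). Kmt5b, Adamts1 and Pcx had no Sin3B peak in either list. A region of 443 bp lay inside Cfl1, which encodes the actin-severing protein cofilin, and one of 438 bp lay near the start of Cfap298. Both held Sin3B at both stages. The remaining gene-start regions of the class were at the lncRNA Gm35330 (300 bp wide, in the stretch of chromosome 13), at Fosl1, the AP-1 subunit Fra-1 (291 bp wide, 989 bp from an end of the gene), at Fam89b (362 bp) and at Neat1, the long noncoding RNA that builds paraspeckles (338 bp). Of these 4 only Neat1 held Sin3B, at both stages. For these 4 genes, and for Mcm4, Prkdc, Shcbp1 and Mcph1, the tables give no strand, so the end met may be the start or the terminus. The same holds for either Ehd1 or Gm14963, which share a myotube-only region.

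Neat1 held a second and wider myoblast-only region, of 889 bp, inside the gene at 5842920 to 5843808 on chromosome 19. It carried Sin3B in myotubes but not in myoblasts, unlike the region at the end of the gene. The other myoblast-only regions inside genes lay in Carns1, which encodes carnosine synthase (455 bp), in Gm26562 (218 bp), in 4930529L06Rik (358 bp) and in the overlapping genes Cryzl1 and Gm10785 (202 bp). A region of 319 bp lay 2157 bp from Csnka2ip, and one of 350 bp on chromosome 16 at 86421297 to 86421646 had no gene within 10 kb. None of these 6 held a Sin3B peak.

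Sin3A at both stages was found at Fam162a (chromosome 16, 36071157 to 36072309), where the peak was 454 bp wide in myoblasts and 882 bp in myotubes. The paired starts of Cdca5, which encodes the cohesion protein sororin, and Zfpl1, a Golgi protein, shared a region on chromosome 19 at 6084746 to 6085503, with peaks of 452 and 758 bp. At Synj1, a phosphoinositide phosphatase of synaptic vesicle recycling, which shares its start region with 4930404I05Rik, the widths were 290 and 797 bp, and at Shcbp1 they were 300 and 493 bp. The order was the other way at Ehbp1l1 (506 bp in myoblasts and 432 bp in myotubes) and at Npas4, an activity-induced transcription factor (528 and 402 bp). All 6 regions held Sin3B in myotubes, and all but Synj1 also in myoblasts. A wider peak is not a stronger one, because the lists carry no height or score.

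Myotube-only Sin3A was led by the start of Naa50, an N-terminal acetyltransferase, beside which Atp6v1a, a subunit of the vacuolar proton pump, starts within 1 kb (chromosome 16, 44139899 to 44140782, 884 bp). Next came 1810013L24Rik (8830227 to 8831093 on chromosome 16, 867 bp). Mcph1, the chromosome condensation protein microcephalin, followed on chromosome 8 at 18594943 to 18595700 (758 bp). Naa50 and 1810013L24Rik held Sin3B in myotubes only, and Mcph1 at both stages. Further down the width order were Cmss1 (694 bp), Urb1, a factor of ribosome assembly (627 bp), Polq, a DNA polymerase of end joining (591 bp), Pnpla6, a phospholipase (584 bp), and Tomm70a, an import receptor of the mitochondrial outer membrane (533 bp). Of these 8 starts only Pnpla6 had no Sin3B peak. The myotube-only region away from any start lay inside Erich1 (730 bp, 17374 bp from a gene start) and held Sin3B at both stages.

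The rest of the myotube-only starts, 290 to 530 bp wide, are given here by what their genes do. Several encode proteins of RNA and protein synthesis. These are Gspt1, the translation termination factor eRF3, Eif4a2, a translation initiation helicase, N6amt1, which methylates the release factor partner of Gspt1, Gtpbp4, a GTPase of ribosome assembly, Rsl1d1, a nucleolar protein, Snapc2, of the complex that transcribes small nuclear RNAs, and Trmt2a, a tRNA methyltransferase that shares its start region with Ranbp1, a regulator of nuclear transport. Mitochondrial proteins are encoded by Yars2, a tyrosyl-tRNA synthetase, Nsun3, a tRNA methyltransferase, Timmdc1, an assembly factor of complex I, and Abhd10. Nuclear proteins are encoded by Banf1, which tethers chromatin to the nuclear envelope and starts beside Eif1ad, and Drap1, a corepressor of general transcription. The starts of Atg3 with Slc35a5, Cip2a with Dzip3, Eaf2 with Iqcb1 and Ankib1 with Krit1 also shared a region. So did Rsl1d1 with 2610020C07Rik, Gspt1 with LOC115488671, Drap1 with AI837181 and Ehd1 with Gm14963. In the last pair, either Ehd1 or Gm14963 counts only through an end of the gene, which may be its terminus. Others were Nubp1, Naxd, Rce1, Dpp3, Anks3 and Cldnd1. No Sin3B peak met the regions of Anks3, Eaf2 with Iqcb1, Cldnd1, Drap1 and Ehd1, and Nsun3 held Sin3B in myoblasts only. No gene set test was run on these groups, which were formed after the genes were seen.

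Regions within 1 kb of a start or gene end of more than 1 gene made up 11 of 33 in the myotube-only class (33.3%, 18.0 to 51.8%). They were 2 of 6 at both stages and 1 of 17 in the myoblast-only class (5.88%, 0.149 to 28.7%). This count was chosen after its values were seen and was not tested. The myoblast-only case, Mcm4 with Prkdc, counts through gene ends alone, and the myotube-only pair of Ehd1 and Gm14963 does so in part.

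Most functional lists had few members in the stretches, and most of those members had no Sin3A peak. Of 17 lists, 3 had a member with Sin3A. Among translation factors, 3 of 5 members present had a myotube-only region, namely Gspt1, Eif4a2 and Eif1ad, beside 2.57% of all genes, and all 5 had Sin3B in myotubes. All 3 lie at entries of the promoter table. Among cell cycle and DNA replication genes, 1 of 4 members had Sin3A, Mcm4 in myoblasts, beside 0.659% of all genes, while all 4 had Sin3B at both stages (Cdc45, Mcm4, Pola2 and Rfc4). Among serum response and immediate early genes, 1 of 2 had a myoblast-only region, Fosl1, beside 0.659% of all genes. Sin3B lay within 1 kb of a start or gene end of Fosl1 and Klf6 in myoblasts, 2 of 2, and at 0 in myotubes. The Fosl1 Sin3A region itself held no Sin3B peak. For Sin3A, Fosl1 counts only through an end of the gene 989 bp away, and it is not counted with starts of the promoter table. No Sin3A region lay at the 7 genes of the mitochondrial ribosome, nor at the 5 genes of the respiratory chain and ATP synthase, beside 3.71% of all genes with any Sin3A region. Sin3B in myotubes lay at 6 of the 7 and 2 of the 5, beside 14.3% of all genes. Sin3A regions were also missing from the starts of the sarcomere genes Actn3 and Myom2, the myogenic regulator Snai2 and the Sin3 partner genes Brms1 and Ing1. Sin3B in myotubes lay at 1 of the 2 sarcomere genes, at Brms1 and Ing1, and not at Snai2. With 0 to 7 members a list, these counts describe single genes and no pathway.

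The genes with Sin3A and those with Sin3B overlapped in part. In the stretches 239 genes (14.3%) had a Sin3B peak at a start in myotubes and 143 (8.56%) in myoblasts. Of the 53 myotube Sin3A genes, 45 (84.9%, 72.4 to 93.3%) had Sin3B in myotubes, which is 18.8% of the Sin3B genes. Of the 19 myoblast Sin3A genes, 12 (63.2%, 38.4 to 83.7%) had Sin3B in myoblasts, which is 8.39% of the Sin3B genes. Whether Sin3B lay more often at gene starts than elsewhere within a class could not be resolved. In the myoblast-only class the counts were 4 of 10 and 1 of 7 (Fisher's exact test, adjusted p = 0.676), and in the myotube-only class 26 of 32 and 1 of 1 (Fisher's exact test, adjusted p = 1).

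Over all 1316 regions, the Sin3B pattern was split further by stage. The Sin3B list of myotubes is the larger, with 3769 peaks (2232.8 kb covered) against 2387 (1275.2 kb) in myoblasts. In every class more regions carried Sin3B in myotubes alone than in myoblasts alone, and the part of list size in this was not tested. At myoblast-only regions, 345 of 561 (61.5%, 57.3 to 65.5%) had no Sin3B peak, 47 (8.38%) had one in myoblasts only, 68 (12.1%) in myotubes only and 101 (18.0%) at both stages. So 169 of these regions were occupied by Sin3B in myotubes, where no Sin3A peak was listed. Myotube-only regions most often carried Sin3B in myotubes alone, at 286 of 628 (45.5%, 41.6 to 49.5%). A further 213 (33.9%, 30.2 to 37.8%) carried it in both lists, and 18 (2.87%) in the myoblast list alone. Where Sin3A itself was present in both lists, Sin3B was in both lists at 83 of 127 regions (65.4%, 56.4 to 73.6%), in myotubes alone at 33 and in neither at 9.

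**Figure D2:**
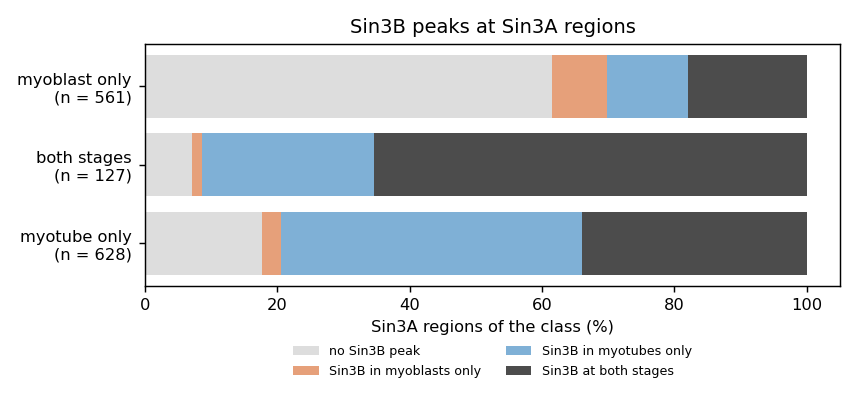
Share of the Sin3A regions of each class (%, horizontal axis) that overlap no Sin3B peak, a Sin3B peak in myoblasts only, in myotubes only, or at both stages. The myoblast-only bar is mostly without Sin3B (61.5%), and the other bars mostly carry Sin3B in myotubes. The Sin3B list of myotubes is the larger (3769 against 2387 peaks).

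Sin3B was found more often at wide Sin3A peaks than at narrow ones. Overlap was counted from 1 bp, so a wider region has more room to meet a Sin3B peak, and this part was not separated. Myoblast-only regions were split into 4 width classes of about equal size. In the narrowest (6 to 280 bp) 39 of 141 held Sin3B at either stage (27.7%, 20.5 to 35.8%), and in the widest (486 to 1065 bp) 70 of 140 did (50%, 41.4 to 58.6%). The classes between them had 42.3% and 34.1%, so the share did not climb at every step. Among myotube-only regions the shares were 71.3% (63.6 to 78.3%) in the narrowest class, then 80.9%, 87.5% and 89.6% (83.7 to 93.9%). The narrowest myotube-only class was above the widest myoblast-only class, with intervals that do not overlap.

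Width also differed by class. The classes rest on an overlap of 1 bp or more, so a wider peak has more room to be shared, and this part was not separated. The widest peak of a region had a median of 398 bp (quartiles 280 and 484 bp) at myoblast-only regions and 466 bp (379 and 577 bp) at myotube-only regions. Where both lists had a peak, the median was 459 bp (360 and 580 bp) in the myoblast list and 524 bp (436 and 638 bp) in the myotube list. Within these 127 regions the myotube peak was the wider at 76, the myoblast peak at 50, and 1 pair was equal, with a median ratio of 1.11 (quartiles 0.83 and 1.62). Pairs were picked by an overlap of at least 1 bp, and most of them coincided closely. The overlap covered a median of 96.6% of the shorter peak and at least 50% at 111 of 127 regions. The myoblast peak lay wholly inside the myotube peak at 39 regions, and the reverse held at 17.

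**Figure D3:**
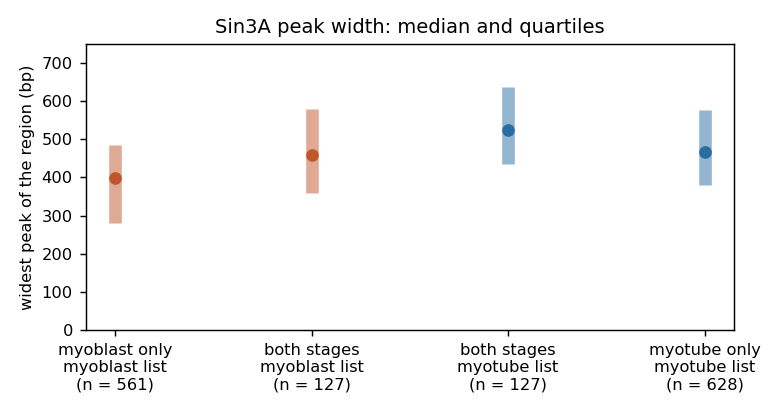
Median (point) and quartiles (bar) of the width in bp of the widest Sin3A peak per region, by class and by the list the peak comes from. Peaks shared by the stages have the higher median width within each list, with overlapping quartiles, at 459 bp against 398 bp in myoblasts and 524 bp against 466 bp in myotubes. The classes are set by overlap, so a wider peak has more room to be shared.

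Sin3A sites were far apart, and few single-stage regions lay within 10 kb of one of the opposite stage. Overlapping peaks of opposite stages are classed as both stages, so the closest such pairs were taken out by definition. A myoblast-only region had a myotube-only region within 1 kb in 5 of 561 cases (0.891%, 0.290 to 2.07%) and within 10 kb in 13 (2.32%, 1.24 to 3.93%). The median gap from a myoblast-only to a myotube-only region was 917 kb, and to its own class 814 kb. For myotube-only regions the gap to the own class was 583 kb. Other regions of the own class lay within 10 kb of 32 myoblast-only regions (5.70%) and of 24 myotube-only regions (3.82%). Within 100 kb, 84 myoblast-only regions (15%) had a myotube-only region and 78 (13.9%) another of their own class. Of the myotube-only regions, 84 (13.4%) had a myoblast-only region within 100 kb and 116 (18.5%) another of their own class.

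The classes were spread over all chromosomes listed. Chromosome 15 held 61 myoblast-only regions (10.9% of the class, 8.42 to 13.7%), 15 regions at both stages (11.8%, 6.76 to 18.7%) and 44 myotube-only regions (7.01%, 5.14 to 9.29%). Chromosome 16 went the other way, with 11 (1.96%, 0.983 to 3.48%), 3 and 24 regions (3.82%, 2.46 to 5.63%). On both chromosomes the intervals of the single-stage classes overlap, and the chromosomes were picked after their values were seen. The densest window of 5 Mb was on chromosome 15 from 75 to 80 Mb, with 27 Sin3A regions, of which 12 were myoblast only, 5 at both stages and 10 myotube only. On chromosome 10 the window from 75 to 80 Mb held 11 myotube-only and 3 myoblast-only regions, and the next, from 80 to 85 Mb, held 8 and 7.

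**Figure D4:**
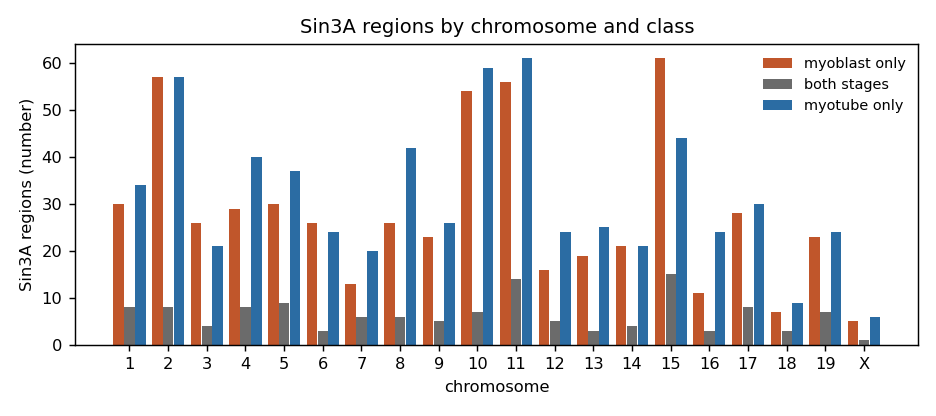
Number of Sin3A regions (vertical axis) on each chromosome (horizontal axis), by class. Chromosome 15 has 61 myoblast-only and 44 myotube-only regions, and chromosome 16 has 11 and 24.

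Inside the stretches, the promoters nearest to Sin3A regions were rich in G, C and CpG. Of the 48 Sin3A regions at gene starts there, 36 overlap a Sin3B peak. Other promoters of the stretches, and those with Sin3B alone, were not counted, so the values cannot be assigned to Sin3A. The RefSeq table matched a promoter to 41 of the 48 regions at gene starts, 1 each, within 1 kb and not always overlapping the region. Their median GC content was 63.0% in the myoblast-only class (5 promoters), 69.3% at both stages (5) and 65.3% in the myotube-only class (31), beside 52.7% over all 32851 promoters of the table. The CpG ratio, observed over expected from base content, had medians of 0.945, 0.956 and 0.859, beside 0.384 over all promoters. A ratio of at least 0.6 was found at 4 of 5, 5 of 5 and 29 of 31 promoters (93.5%), and at 35.8% of all.

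Motif letters rich in G and C were more common in these 41 promoters than over all promoters, with the same limit. The GC box GGGCGG was present in 30 of 41 promoters (73.2%) and in 35.7% of all promoters. The ETS letters CCGGAAG were in 15 (36.6%) and in 8.86% of all, and the E2F letters TTCCCGC in 8 (19.5%) and in 4.60% of all. The E-box CANNTG, the general target of MyoD-type factors, was in 22 (53.7%) and in 72.3% of all promoters, and its form CAGCTG in 5 (12.2%) and in 16.3% of all, while its form CACGTG was in 4 (9.76%) and in 7.15% of all. GC content moved with these shares, and its part in them was not tested. Of 14 motifs, none differed between myotube-only and myoblast-only promoters (Fisher's exact test, two-sided, lowest p = 0.37, adjusted p = 1 for all 14), and with 5 myoblast-only promoters the comparison has little power. The ETS letters were in 11 of 31 myotube-only promoters (35.5%), 2 of 5 at both stages and 2 of 5 myoblast-only promoters.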

How the data were processed

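Chromatin immunoprecipitation and sequencing of Sin3A and Sin3B was done in C2C12 myoblasts and myotubes. Per the labels' protocols, nuclei were sonicated, libraries had 18 cycles of PCR and fragments of about 350 bp with adapters were sequenced on the Genome Analyzer. The deposited files are peak lists of chromosome, start and end without a header, score or p-value. Aligner, caller, threshold, build, pooling and use of the 3 input samples remain unstated (not given in the sources used here), so depth is unknown. PCR copies are not independent molecules.

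Files of a group were identical and counted once. Peaks overlapping by 1 bp or more were merged, and positions are counted from 1. Stretches taken to share positions with GRCm38.p6, to within the offsets given above, were found by scoring consecutive Sin3B regions 1 up within 1 kb of a gene start and 1 down otherwise, and keeping maximal runs with a net score of at least 5. Gene starts came from 27025 genes of the RefSeq promoter table and span ends of 7603 other genes. Fisher's exact test compared shares over regions (threshold 0.05, Benjamini-Hochberg adjustment over 8 tests, and over 14 for motifs). The genes named first in each class are the 8 with the widest peaks, or the lowest mean width rank at both stages, and all other regions of the stretches are listed after them. The motif test planned for region centres was run on promoters, since no genome of the build was used. The regions and gene lists were chosen with earlier results of these data known, and the stretches after the files were seen: a sliding window and runs from promoter-table starts alone were tried first. The planned gene start was the annotated transcription start, and gene ends were added after a first pass had been seen, because the promoter table lacks an entry for some genes. Region merging was tested on simulated lists of well-separated sites whose shared peaks overlap widely (0 errors in 20). Closely spaced or barely overlapping peaks were not covered by this test. Alternatives covered the overlap, merging distance, peak width, chromosome X, start window, gene type and choice of stretches. Versions were scipy 1.17.1 for tests, pandas 2.3.3 and numpy 2.4.6 for tables, matplotlib 3.10.9 for plots, under Python 3.11.15.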

Additional observations from a re-analysis of the deposited data

How the results depend on the processing

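No paired analysis was possible because the files of a group were identical, so neither a replicate nor a block could be formed and none could be left out. Of 164 values of 16 results under 11 alternatives, 147 counted as unchanged. For tests this meant the same direction and side of the threshold, for counts within 1.5 times, and for motif shares within the main interval. Some of these values could not change, since no stretch lies on chromosome X, and the start window and gene type do not enter the merging. With peaks at or above the median width of their list, the regions were 289 myoblast only, 55 at both stages and 328 myotube only, since fewer peaks enter, the genes at both stages were 3 and the myotube-only genes 22. The gene-start difference between the single-stage classes was then 14.7 points, and 14.6 points with a window of 5 kb, neither called. Myoblast-only genes numbered 7 within 500 bp, 18 within 5 kb and 5 with starts of the promoter table only (this setting, the score of at least 10 and the whole of chromosome 16 were chosen after seeing the data). The difference in regions inside genes was called within 500 bp (-46.9 points) and with starts of the promoter table only (-52.8 points), and that outside genes with protein-coding genes only (-41.2 points), as noncoding genes then no longer count. Values that were not called changed sign: for Sin3B at gene starts against elsewhere in the myotube-only class, 66.7 points with wide peaks and 19 points over the whole of chromosome 16, and there, for regions at both stages against single-stage ones, -4.76 points at gene starts and 13.3 points inside genes. The cause was not tested. Unknown depth limits every statement that a peak is missing from a list.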
